A study of Mus musculus with 36 samples.

Results

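The genes described here are 5 macrophage genes out of 988 genes read by a targeted panel: Spp1, Mmp12, Cd163, Clec10a and Ctss. They were chosen by name, after earlier results of these libraries were known, so that Spp1 and Mmp12, known from macrophages of tumours, could be set against Cd163 and Clec10a, known from macrophages resident in tissues. Ctss, a general gene of antigen-presenting cells, stands beside both pairs. The panel (QIAseq Targeted RNA, Mouse Immuno-Oncology) amplifies a short stretch of each transcript, and the libraries were read on a MiSeq. All 5 genes had counts in both deposited tables, which together hold 34 libraries in 9 groups.

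The AOM-treated mice were C57BL/6. Colon tumours were sampled from sash mice, labelled C57BL/6 (cKitw-sh) with a Kit "sash" mutation (n = 5), and from wild-type mice (n = 5), at 32 weeks of age. Both groups had received 6 weekly injections of the colon carcinogen azoxymethane (AOM, 10 mg/kg per week) into the peritoneum, and tumours were taken 18 weeks after the last. Preneoplastic lesions of the colon were sampled from sash (n = 3) and wild-type mice (n = 3) of 14 weeks, which had 3 AOM injections over 3 weeks and were killed 3 weeks later. In a separate experiment, wild-type mice, also of 14 weeks, were given cromolyn, a mast cell stabiliser, together with AOM for 3 weeks (n = 3), or for 3 weeks after AOM (n = 3), or AOM only (n = 3). MC-38, a C57BL/6 colon carcinoma line, was grown in sash (n = 5 analysed) and wild-type hosts (n = 4 analysed) labelled as treated with saline, and the labels give neither the age of these hosts nor the site of the graft. The sash mutation is a rearrangement upstream of Kit that is used to remove mast cells and that also alters Kit in other cells, so a difference between genotypes is not by itself a difference due to mast cells. The labels do not say that each library is a separate mouse, so the spread between replicates may be partly technical.

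Totals ran from 449880 to 1264354 counts per library. Kit, the gene at which the sash strain is mutated, stood at 49.7 to 99.3 CPM (counts scaled to the size of the library, within a table) in sash tumours against 95.3 to 476 CPM in wild-type tumours, and at 114 to 143 CPM in sash lesions against 334 to 509 CPM in wild-type lesions. In MC-38 tumours Kit had 1 to 16 counts per library, while the mast cell protease gene Cpa3 had 15 counts over the sash hosts and 1574 over the wild-type hosts. The epithelial marker Epcam was at 9591 to 34760 CPM in the libraries of AOM-treated colon and at no more than 3.32 CPM in those of MC-38 tumours, although these carry the label of a colon cancer cell. The macrophage markers Csf1r, Adgre1 and Cd68 were detected in every library of all groups. Wild-type tumours 2 and 4 stood apart: Car4, a gene of surface colonocytes, was at 14904 CPM in wild-type tumour 4 against a median of 3802 CPM in the group, and summed B cell markers were at 751 CPM in wild-type tumour 2 against 21.7 to 37.8 CPM in the other 4.

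Macrophages of the gut wall are replaced from blood monocytes and, once settled, take up debris and dampen inflammation. Monocytes that enter a tumour often take another course and make matrix proteins and proteases. Spp1 encodes osteopontin, a secreted phosphoprotein that binds CD44 and integrins. Mmp12 encodes macrophage elastase, a protease that cleaves elastin and other matrix. Cd163 encodes the scavenger receptor for complexes of haemoglobin and haptoglobin. Clec10a encodes a C-type lectin that binds galactose-type sugars and is found on macrophages and some dendritic cells. Ctss encodes cathepsin S, the lysosomal protease that trims the invariant chain during class II antigen presentation. Spp1 and Mmp12 are not exclusive to macrophages, since epithelial and stromal cells can make osteopontin, and a bulk library cannot tell fewer cells of a type from less RNA per cell.

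The promoters of Spp1, Mmp12 and Cd163 are shown because these genes carry the contrast between tumours and lesions. RefSeq (GRCm38.p6) gave promoters for 4 of the 5 genes, from 250 bases before the start site to 50 after it. Where there were 2, the promoter nearest the principal transcripts was taken. Capitals mark matches to GAGGAAGT, the box bound by the myeloid factor PU.1, or to TGANTCA, the AP-1 site, searched on both strands. The promoters are Spp1 at chr5:104434861-104435160, Mmp12 at chr9:7347124-7347423 and Cd163 at chr6:124304401-124304700, all on the plus strand.
Spp1: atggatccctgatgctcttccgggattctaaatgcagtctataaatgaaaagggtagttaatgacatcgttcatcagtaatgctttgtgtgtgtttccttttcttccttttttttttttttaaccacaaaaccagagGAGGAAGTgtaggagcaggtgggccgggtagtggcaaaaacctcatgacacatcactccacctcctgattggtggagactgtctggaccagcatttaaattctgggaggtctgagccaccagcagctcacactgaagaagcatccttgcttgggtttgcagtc
Mmp12: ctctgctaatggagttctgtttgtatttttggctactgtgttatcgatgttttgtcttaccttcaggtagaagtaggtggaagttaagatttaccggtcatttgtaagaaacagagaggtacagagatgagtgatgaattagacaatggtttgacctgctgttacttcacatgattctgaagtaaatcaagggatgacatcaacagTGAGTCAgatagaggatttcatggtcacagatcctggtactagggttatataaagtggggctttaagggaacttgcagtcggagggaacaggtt
Cd163: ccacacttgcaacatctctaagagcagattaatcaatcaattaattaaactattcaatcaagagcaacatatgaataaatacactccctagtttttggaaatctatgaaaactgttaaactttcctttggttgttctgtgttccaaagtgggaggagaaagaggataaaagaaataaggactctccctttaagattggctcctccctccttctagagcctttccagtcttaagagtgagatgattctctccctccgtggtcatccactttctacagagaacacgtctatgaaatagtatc
Spp1 held 1 match to the PU.1 box, which began 113 bases before the start site, and Mmp12 held 1 match to the AP-1 site, which began 44 bases before it. Cd163 held neither run of letters in this window. The Ctss promoter (chr3:95526536-95526835, plus strand) had 1 match to the PU.1 box, on the reverse strand, which began 2 bases before the start site. Of the 32851 promoters of the same length in the table, 3.2% held the PU.1 box and 7.81% the AP-1 site. The matched letters are a description and not a measured site. The name Clec10a had no entry.

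Spp1, the osteopontin gene, was abundant in every tumour group and close to the detection limit in every colon sample without a tumour. It stood at 2019.8, 4838, 1327, 975 and 997 CPM in sash tumours 1 to 5, against 3.58, 2.78 and 3.54 CPM in sash lesions 1 to 3, which correspond to 2, 2 and 3 counts. Wild-type tumours 1 to 5 had 1613, 784, 1875, 184 and 1193 CPM, and wild-type lesions 1 to 3 had 5.31, 12.1 and 3.77 CPM. The lowest tumour was thus far above the highest lesion sample in both genotypes, and wild-type tumour 4 was the lowest of all 10 tumours. Pooled counts gave a tumour-to-lesion ratio of 695 in sash (95% interval 337 to 1729) and of 200.3 in wild type (121 to 358). Without sash tumour 2 the ratio was 453 in sash, and without wild-type lesion 2 it was 307 in wild type. These intervals, like all of pooled counts here, cover counting error only. In the cromolyn experiment Spp1 had 2, 2 and 0 counts with cromolyn during AOM, 4, 1 and 1 with cromolyn after AOM, and 2, 1 and 3 with AOM only. A library without a count allows up to 3 counts of its total.

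Mmp12, the macrophage elastase gene, followed the same split at a smaller ratio. Sash tumours 1 to 5 had 873, 1002, 735, 1331 and 464 CPM, and sash lesions 1 to 3 had 14.3, 8.34 and 23.6 CPM. Wild-type tumours 1 to 5 had 1279.7, 328, 466, 78.6 and 1243 CPM, and wild-type lesions 1 to 3 had 10.6, 4.54 and 12.2 CPM. No tumour overlapped a lesion sample, and wild-type tumour 4 was again the lowest tumour. The pooled ratio of tumours to lesions was 62.1 in sash (44.4 to 89.8) and 83.6 in wild type (55.1 to 134). Without sash lesion 3 the ratio was 96.3 in sash. Cromolyn during AOM gave 17.6, 5.74 and 7.10 CPM and cromolyn after AOM gave 4.07, 9.52 and 0 CPM, against 2.34, 9.40 and 12.2 CPM with AOM only.

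Cd163, the haemoglobin scavenger receptor gene, ran the other way. Sash tumours 1 to 5 had 2, 1, 1, 0 and 2 counts, and sash lesions 1 to 3 had 12, 13 and 44 counts. On the CPM scale this was 0.991 ± 0.716 (SD, n = 5) in sash tumours and 30.5 ± 18.6 (n = 3) in sash lesions, with no overlap, and a pooled ratio 29.5-fold lower in the tumours (12.9 to 83.2). It was 16.7-fold lower without sash lesion 3. Wild-type tumours 1 to 5 had 0, 6, 18, 10 and 0 counts, or 7.54 ± 7.93 CPM, against 10, 34 and 47 counts in wild-type lesions 1 to 3, or 37.8 ± 17.8 CPM. The wild-type groups overlapped, because wild-type tumour 3 lay at 18.9 CPM and wild-type lesion 1 at 17.7 CPM. The pooled ratio in wild type was 4.89-fold lower in tumours (3.27 to 7.49), and 8.27-fold lower without wild-type tumour 3.

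Clec10a, the galactose-type lectin gene, was low in every AOM library, with 0 to 19 counts. Sash tumours 1 to 5 had 6, 6, 3, 9 and 6 counts, and sash lesions 1 to 3 had 6, 11 and 19 counts, which gave 4.96 ± 1.86 CPM in the tumours and 16.1 ± 5.88 CPM in the lesions without overlap. Wild-type tumours 1 to 5 had 18, 3, 13, 5 and 6 counts, and wild-type lesions 1 to 3 had 9, 14 and 5 counts, and these groups overlapped. The pooled ratio was 3.08-fold lower in sash tumours than in sash lesions (1.84 to 5.18). In wild type the ratio was 0.879 (0.536 to 1.46), and 0.572 (0.339 to 0.991) without wild-type lesion 3.

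Ctss, the cathepsin S gene, was lower in 9 of 10 tumours than in every lesion sample of the same genotype. Sash tumours 1 to 5 had 3962, 4617, 3196, 2796 and 3585 CPM, all below the 9385, 10234 and 9704 CPM of sash lesions 1 to 3. Wild-type tumours 1 to 5 had 5826, 6584, 3930.0, 9047 and 4164 CPM, against 8090.2, 7205 and 10424 CPM in wild-type lesions 1 to 3. Wild-type tumour 4 lay within the range of the lesions and the other 4 lay below it.

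**Figure D1:**
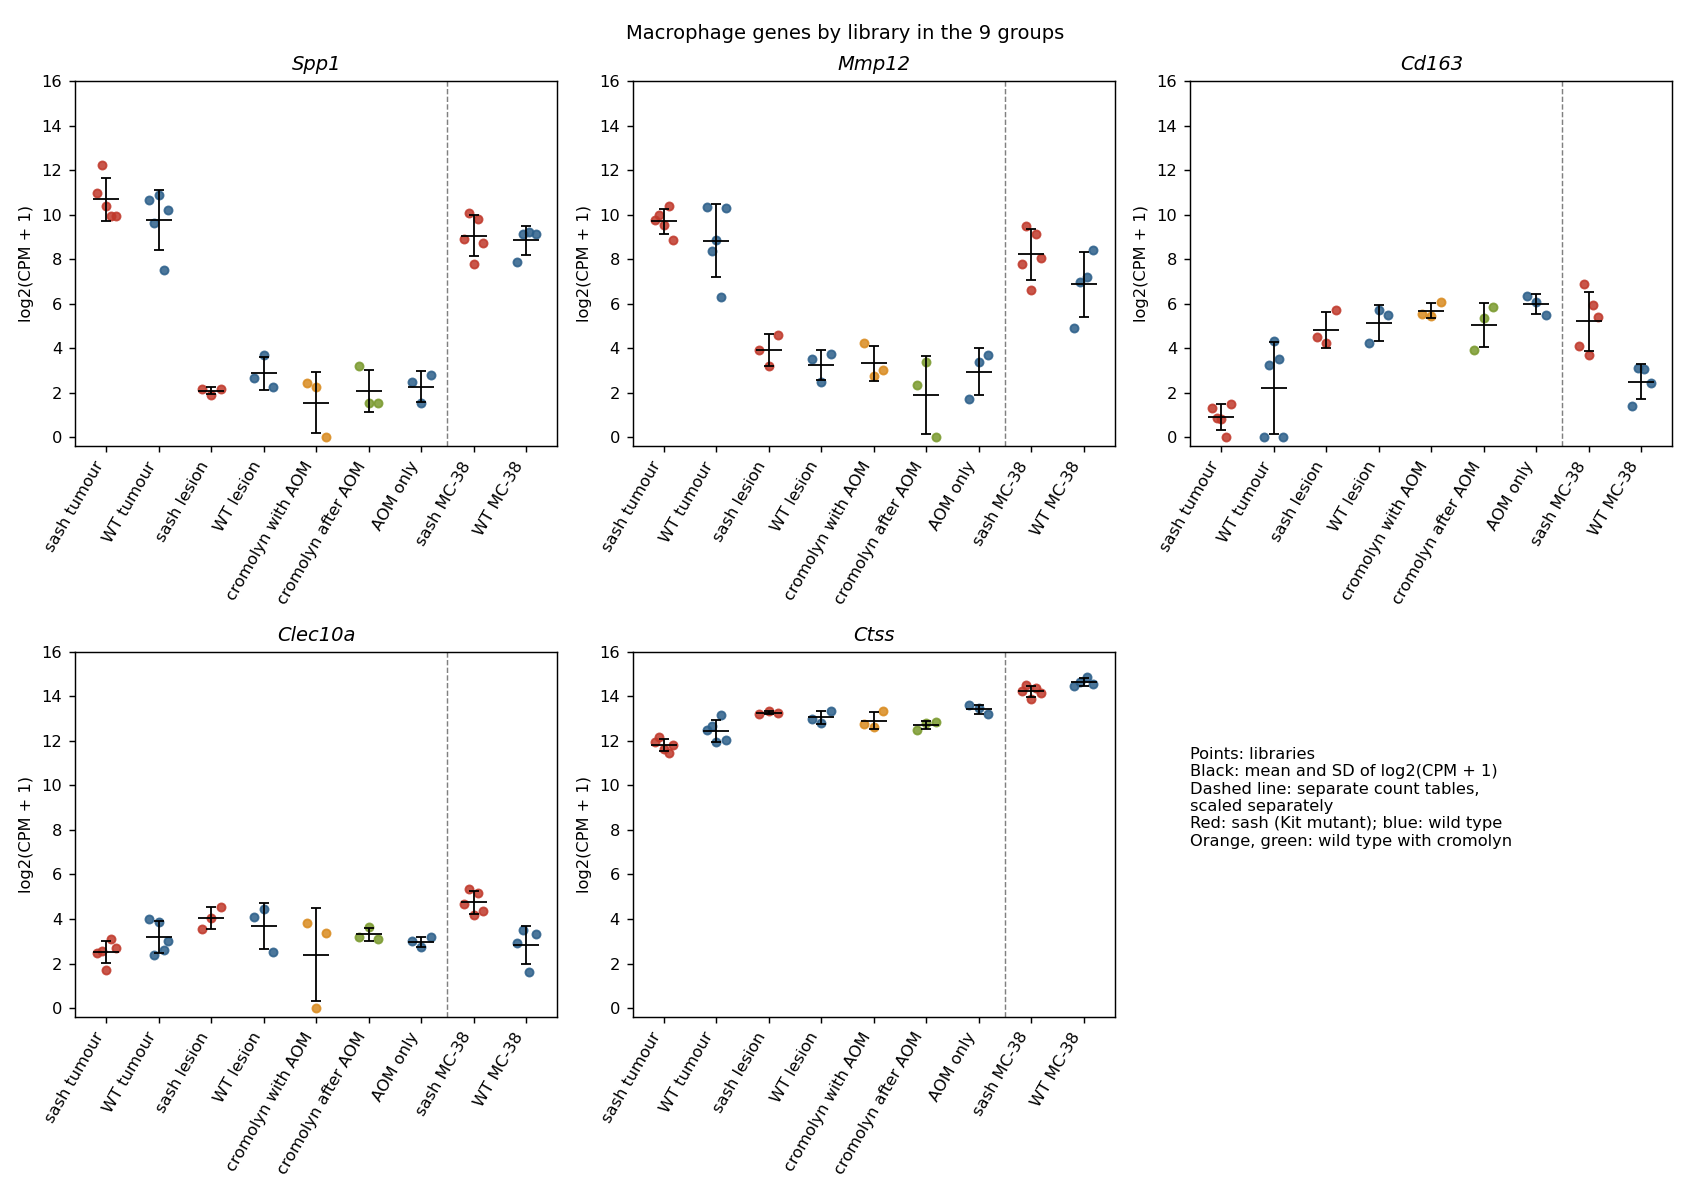
Level of each gene as log2(CPM + 1) in every library of the 9 groups, with the group mean and SD in black. Spp1 and Mmp12 are high in the tumour groups and low in the colon samples without a tumour, and Cd163 is lowest in sash tumours. The MC-38 libraries to the right of the dashed line come from a separately scaled table.

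Within the table of AOM libraries the groups were also ordered by their mean level, high to low. For Spp1 the order was sash tumours, wild-type tumours, wild-type lesions, AOM only, cromolyn after AOM, sash lesions and cromolyn with AOM. For Mmp12 it was sash tumours, wild-type tumours, sash lesions, cromolyn with AOM, wild-type lesions, AOM only and cromolyn after AOM. In both genes the step from wild-type tumours to the next group was the only one between neighbours whose ranges did not overlap. For Cd163 the order was AOM only, cromolyn with AOM, wild-type lesions, cromolyn after AOM, sash lesions, wild-type tumours and sash tumours. For Clec10a it was sash lesions, wild-type lesions, cromolyn after AOM, wild-type tumours, cromolyn with AOM, AOM only and sash tumours. For Ctss it was AOM only, sash lesions, wild-type lesions, cromolyn with AOM, cromolyn after AOM, wild-type tumours and sash tumours. In these last 3 genes all neighbours overlapped. Levels of different genes were not compared, since amplicons differ in yield.

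The contrast of the pairs was computed within each library, as the mean log2(CPM + 1) of Spp1 and Mmp12 minus that of Cd163 and Clec10a. It was 8.49 ± 0.75 in sash tumours and −1.42 ± 0.41 in sash lesions, a difference of 9.91 (SE 0.41). In wild-type tumours it was 6.61 ± 2.04 and in wild-type lesions −1.36 ± 0.56, a difference of 7.97 (SE 0.97). The lowest tumour, wild-type tumour 4, had 3.86, and the highest of the 15 colon samples without a tumour, a library of cromolyn with AOM, had −0.20. Since the genes were picked for this contrast, it is a description and was not tested. Tumours and lesions also differed in age, in the number of injections and in the tissue taken, which cannot be told apart from the stage. Groups did not overlap for 52.6% of the 848 genes in sash and for 28.4% in wild type, so the absence of overlap was common here.

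**Figure D2:**
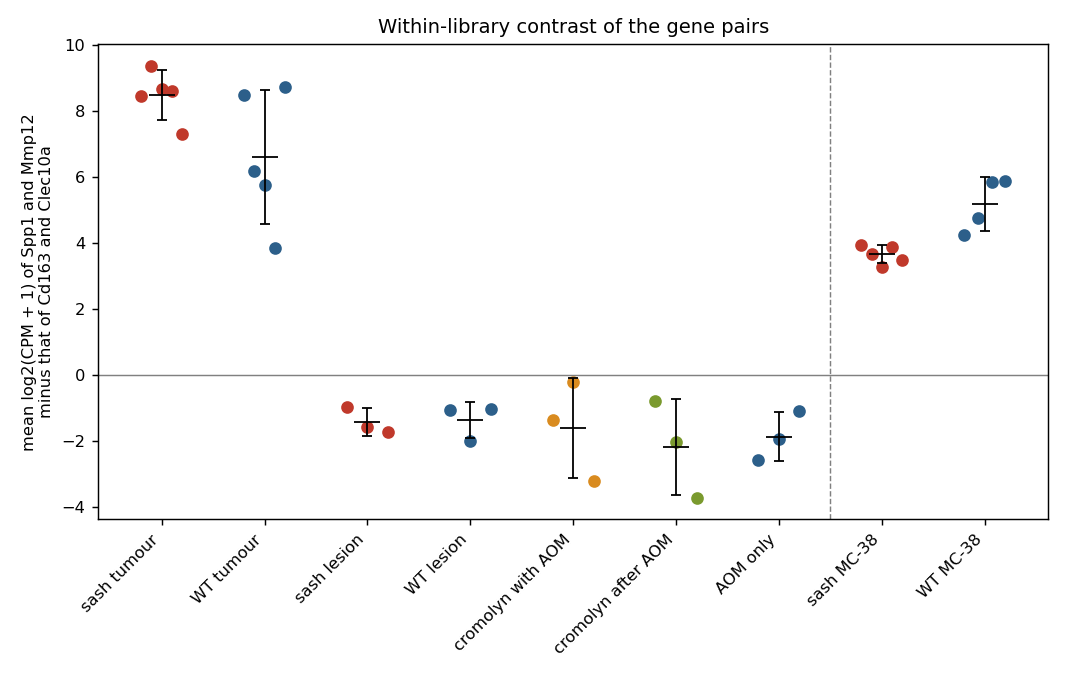
Mean log2(CPM + 1) of Spp1 and Mmp12 minus that of Cd163 and Clec10a in each library, with the group mean and SD in black. All 10 colon tumours lie above all 15 colon samples without a tumour. The line at 0 has no meaning of its own, since amplicons differ in yield. The MC-38 libraries come from a separately scaled table.

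General macrophage markers differed far less between the stages than Spp1 and Mmp12 did. The summed level of the 14 monocyte and macrophage genes on the panel was 6752 to 8662 CPM in sash tumours and 2619 to 3872 CPM in sash lesions, and 3366 to 8805 CPM in wild-type tumours and 3095 to 3811 CPM in wild-type lesions. Of the 14 genes Marco was at 0 in every group. The sum of the 6 other resident macrophage genes on the panel did not fall in tumours as Cd163 did, though a sum can hide falls of single genes. These 6 genes summed to 488 to 596 CPM in sash tumours and 397 to 528 CPM in sash lesions. In wild type their sum was 506 to 740 CPM in tumours and 376 to 561 CPM in lesions. Relative to Csf1r, the receptor gene that macrophages depend on, Spp1 had a log2 ratio of 2.28 ± 0.89 in sash tumours and −5.42 ± 0.82 in sash lesions, and of 1.19 ± 0.88 in wild-type tumours and −5.22 ± 0.72 in wild-type lesions. Cd163 relative to Csf1r was at −7.51 ± 0.52 in sash tumours and −2.70 ± 0.42 in sash lesions, without overlap. In wild type it was at −6.38 ± 2.74 in tumours and −2.95 ± 0.55 in lesions. Sash tumours had 0 to 2 counts of Cd163, so the pseudocount of 1 CPM weighs heavily in their ratio. Arg1, the arginase gene of some tumour macrophages, was at 3048 ± 817 CPM in sash tumours and 16.8 ± 0.798 CPM in sash lesions. In wild type it was at 2236 ± 1761 CPM in tumours and 26.1 ± 1.44 CPM in lesions. The list of 12 tumour macrophage genes that holds Arg1 differed less between the stages. It summed to 21268 to 31482 CPM in sash tumours and 5758 to 9582 CPM in sash lesions. In wild type the sum was 7854 to 32020 CPM in tumours and 6990 to 9055 CPM in lesions. Car4 stood at 909.8 ± 569 CPM in sash tumours and 51852 ± 15789 CPM in sash lesions, so the epithelial make-up also differed between the stages, and its part in the values above was not tested.

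Sash and wild-type tumours were compared for the effect of the Kit mutation. No gene of the 5 passed at an adjusted p below 0.05 in edgeR's quasi-likelihood test, and 0% of the 797 genes tested did (159 at an unadjusted p below 0.05, and 81 by DESeq2), while the groups did not overlap for 5.4%. Spp1 averaged 2031 ± 1625 CPM in sash and 1129.8 ± 672 CPM in wild-type tumours (log2 difference 0.83, SE 0.59, adjusted p = 0.475). Sash tumours 1 and 2 lay above every wild-type tumour and the other 3 within their range, and without sash tumour 2 the difference was 0.21. Mmp12 averaged 881 ± 321 CPM in sash and 679 ± 549 CPM in wild-type tumours (0.36, SE 0.59, adjusted p = 0.767), and the sign turned (−0.17) without wild-type tumours 2 and 4. The 95% interval of the difference ran from −0.48 to 2.13 for Spp1 and from −0.95 to 1.66 for Mmp12.

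Ctss averaged 3631 ± 702 CPM in sash and 5910.1 ± 2078 CPM in wild-type tumours (−0.72, SE 0.23, adjusted p = 0.119). In 3 of 5 sash tumours it was below every wild-type tumour. DESeq2 gave an adjusted p of 0.0417 for it and a fit over all 25 AOM libraries 0.0265. Cd163 and Clec10a had too few counts for the test of the tumours. Pooled counts of Cd163 were 6 in sash and 34 in wild-type tumours, 7.25-fold lower in sash (3.01 to 21.1), and 4.29-fold lower without wild-type tumour 3, but 2 of the 5 wild-type tumours had 0 counts. The fit over all 25 libraries, in which Cd163 could be tested, gave −2.73 (SE 0.86, adjusted p = 0.0439). Cd163 met the filter there through the colon samples without a tumour, at 14.3 to 81.8 CPM. Those samples also enter its estimated spread, so this p does not rest on the tumours alone. The fit of the tumours without a filter gave −2.81 (SE 1.09, adjusted p = 0.21). Pooled counts of Clec10a were 30 for sash and 45 for wild-type tumours, 1.92-fold lower in sash (1.18 to 3.16), and 1.55-fold lower (0.884 to 2.69) without wild-type tumour 1.

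In preneoplastic lesions none of the 5 genes passed between sash and wild type, where 2.84% of the 775 genes tested did, 2.32% downwards (84 genes in place of 22 with the replicate number as a block, with none of the 5 among them). Groups did not overlap for 24.3%. Cd163 was at 21.5, 18.1 and 51.9 CPM in sash and 17.7, 51.5 and 44.3 CPM in wild-type lesions (−0.30, SE 0.56, adjusted p = 0.84). Its difference was −1.003 without sash lesion 3 and −0.02 without wild-type lesion 2. Clec10a was at 10.7, 15.3 and 22.4 CPM in sash and 15.9, 21.2 and 4.71 CPM in wild-type lesions (0.28, SE 0.60, adjusted p = 0.859). Its sign turned without wild-type lesion 3 (−0.21) and without sash lesion 3 (−0.08). Ctss averaged 9774 ± 429 CPM in sash and 8573 ± 1663 CPM in wild-type lesions (0.17, SE 0.18, adjusted p = 0.714). The groups overlapped in these 3 genes. Spp1 and Mmp12 had too few counts for the test.

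The genotype difference in tumours minus that in lesions was tested for all 5 genes, and none passed, as for 0% of the 848 genes (128 at an unadjusted p below 0.05, and 19 by DESeq2). The value for Ctss was −0.85 (SE 0.34, adjusted p = 0.272), for Cd163 −2.45 (SE 1.33, adjusted p = 0.379) and for Clec10a −1.11 (SE 0.78, adjusted p = 0.505). For Spp1 it was 1.86 (SE 1.46, adjusted p = 0.556) and for Mmp12 −0.35 (SE 1.09, adjusted p = 0.897). Of these, the value for Mmp12 changed sign on leaving out wild-type tumour 1 or sash lesion 3. Except for Ctss, counts were low in 1 arm. Spp1 had 2 to 8 and Mmp12 3 to 20 counts per lesion library. Cd163 had 0 to 18 and Clec10a 3 to 18 counts per tumour library. These genes had too few counts for a test of that arm alone, so their values here decide little.

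The cromolyn groups ask what a drug that stabilises mast cells does to the colon of mice given AOM. Ctss fell in the libraries of cromolyn after AOM. It stood at 5757, 7067 and 7262 CPM with cromolyn after AOM, against 12409, 11268 and 9466 CPM with AOM only (−0.75, SE 0.19, adjusted p = 0.0427). Each treated library was below every library of AOM only. Of the 768 genes tested 4.82% passed, 2.47% downwards, and groups did not overlap for 29.3%. The call was lost on leaving out any of the 6 libraries (adjusted p 0.0552 to 0.168) and in a fit over all 25 AOM libraries (0.35). Markers of other cells moved with it: the summed level of the 3 epithelial genes was 20991 to 38035 CPM with cromolyn after AOM and 47531 to 62294 CPM with AOM only. The 5 fibroblast and matrix genes summed to 7363 to 8594 CPM with cromolyn after AOM and 11386 to 13063 CPM with AOM only. Dendritic cell markers ran the other way, at a summed 3179 to 5977 CPM with cromolyn after AOM and 2441 to 2853 CPM with AOM only. All 6 tested genes of that list lay above 0 (median 0.37). So did all 7 tested B cell genes (median 2.02), although their summed ranges overlapped. None of these genes passed, and their part in the fall of Ctss was not tested.

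Cromolyn given with AOM left Ctss at 6933, 6289 and 10439.5 CPM, against 12409, 11268 and 9466 CPM with AOM only (−0.50, SE 0.19, adjusted p = 0.219), and 0.26% of genes passed. The 2 regimens, which share the AOM only group, differed from each other by 0.24 for Ctss (SE 0.19, adjusted p = 0.738) and by 0.46 for Cd163 (SE 0.44, adjusted p = 0.786), with 0% of genes passing (64 at an unadjusted p below 0.05, and 3 by DESeq2). Cd163 was at 46.2, 42.1 and 66.3 CPM with cromolyn during AOM (−0.33, SE 0.42, adjusted p = 0.681) and 14.3, 40.0 and 57.1 CPM with cromolyn after AOM (−0.80, SE 0.43, adjusted p = 0.299), against 81.8, 65.8 and 44.6 CPM with AOM only. Clec10a had 6, 0 and 4 counts with cromolyn during AOM, 4, 6 and 4 with cromolyn after AOM, and 3, 3 and 4 with AOM only, and was not tested.

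Wild-type lesions had the same labelled treatment as the AOM only group but come from another set. Ctss was at 8090.2, 7205 and 10424 CPM in wild-type lesions against 12409, 11268 and 9466 CPM with AOM only (−0.41, SE 0.19, adjusted p = 0.169). Cd163 differed by −0.79 (SE 0.42, adjusted p = 0.221), beside −0.80 between cromolyn after AOM and AOM only. Of the 762 genes tested 15.6% passed between these 2 groups, 8.66% upwards and 6.96% downwards, and groups did not overlap for 40.6%. Without wild-type lesion 3 the adjusted p for Ctss was 0.0363. Among list genes Adgre1 (−1.16, adjusted p = 0.0284), Lgmn, the legumain gene (−0.85, adjusted p = 0.0471), and Csf1, which encodes a macrophage growth factor (−1.39, adjusted p = 0.00615), were lower in wild-type lesions by edgeR. Further list genes passed downwards, 1 each in the tumour macrophage, monocyte chemoattractant, neutrophil, mast cell, T cell, fibroblast and matrix, and endothelium lists. Some of these lists share genes. Other list genes passed upwards: 1 of the cathepsin list, 2 of the dendritic cell list, 5 of the B cell list and 1 of the epithelial list.

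Few other genes of the macrophage lists passed after cromolyn. Of 10 tested genes of the cathepsin list only Ctsl, another lysosomal cathepsin, passed, at 2267 ± 284 CPM with cromolyn after AOM and 3414 ± 180 CPM with AOM only (−0.61, SE 0.16, adjusted p = 0.0427). The median of that list was −0.23, beside 0.01 over all genes. Nos2, the inducible nitric oxide synthase, rose to 73.4 ± 37.5 CPM, against 15.6 ± 3.48 CPM with AOM only (2.18, SE 0.48, adjusted p = 0.0339), and no other of the 11 tested tumour macrophage genes passed. Il13, the type 2 cytokine, was at 26.0 ± 2.89 CPM with cromolyn after AOM and 1.93 ± 1.88 CPM with AOM only (3.49, SE 0.88, adjusted p = 0.0427), and no other of the 6 tested genes of the type 2 list passed. These levels rest on 40 counts with cromolyn after AOM and 3 with AOM only, and Il13 met the count filter through the treated libraries. Without a filter its adjusted p was 0.0435. In the fit over all 25 AOM libraries none of the 37 calls of this comparison was left, with adjusted p = 0.534 for Ctsl, 0.306 for Nos2 and 0.32 for Il13. Leaving out any of the 6 libraries ended the calls of Ctsl (0.0701 to 0.157) and Il13 (0.0888 to 0.155). That of Nos2 held only without library 3 of cromolyn after AOM (0.0156) and was lost without any of the other 5 (0.0701 to 0.125). F13a1, the factor XIII gene of resident macrophages, was at 60.9 ± 5.18 CPM with cromolyn after AOM and 96.2 ± 14.4 CPM with AOM only (−0.68, adjusted p = 0.173), and none of the 5 tested genes of the resident list passed. None of 13 monocyte and macrophage genes passed, with a median of −0.28.

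**Figure D3:**
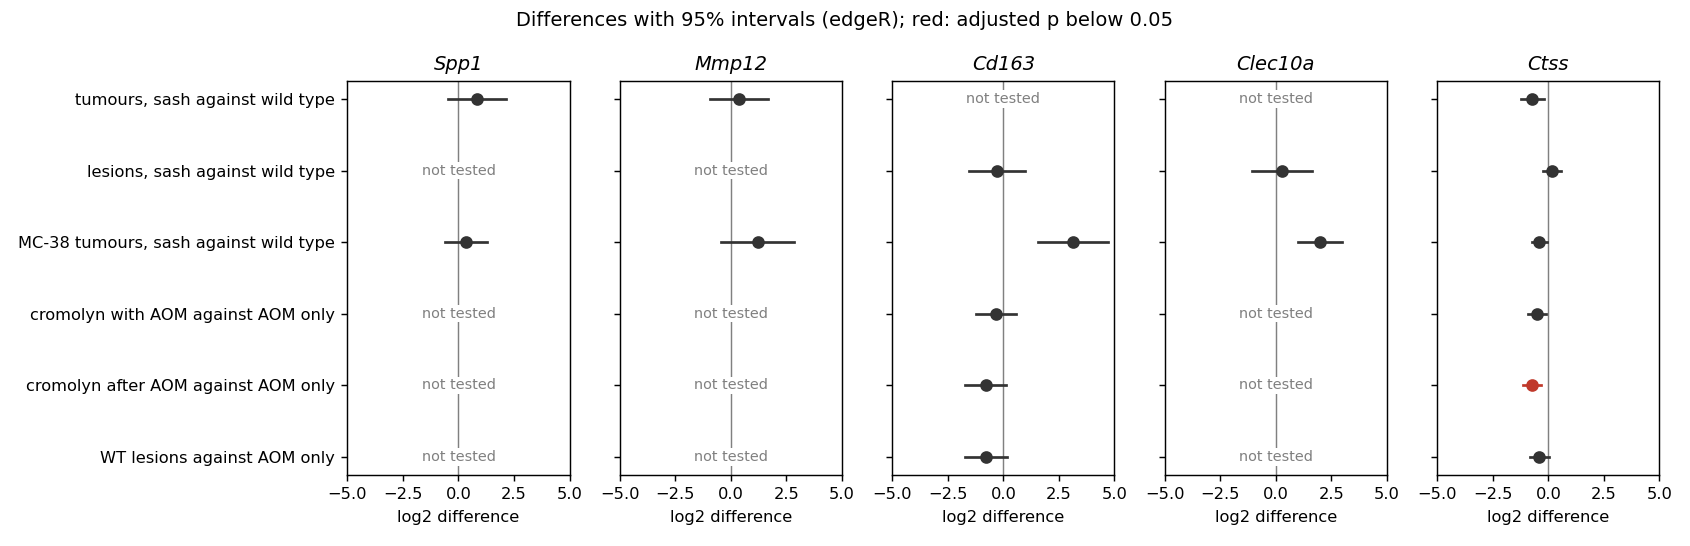
Log2 differences with 95% intervals from edgeR for each gene in 6 comparisons, the first group of each name minus the second. Only Ctss after cromolyn passed the adjusted threshold, and the intervals of Cd163 and Clec10a in MC-38 tumours lie furthest above 0.

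In MC-38 tumours Cd163 and Clec10a were higher in every sash host than in any wild-type host, but neither passed the adjusted threshold. Cd163 was at 16.4, 118, 11.9, 60.9 and 42.0 CPM in sash hosts 1, 2, 4, 5 and 6, against 1.62, 7.77, 7.39 and 4.48 CPM in wild-type hosts 1, 3, 4 and 5. Those values are 8, 71, 7, 55 and 26 counts in sash and 1, 6, 7 and 3 counts in wild type. Clec10a was at 24.6, 39.8, 17.0, 35.5 and 19.4 CPM in sash hosts against 6.49, 10.4, 2.11 and 8.96 CPM in wild-type hosts. Groups did not overlap for 8.68% of the 714 genes tested.

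Of these genes 1.26% passed, 0.7% upwards. The log2 difference of Cd163 was 3.13 (SE 0.71, 95% interval 1.57 to 4.69) and that of Clec10a 1.98 (SE 0.45, 1.00 to 2.95), with adjusted p = 0.0508 each in edgeR's quasi-likelihood test. Without sash host 4 the adjusted p was 0.0165 for Cd163 and 0.0267 for Clec10a. DESeq2, which called 48 genes in place of 9, gave an adjusted p of 0.000591 for Cd163. The adjusted p ran up to 0.148 for Cd163 over the 5 libraries whose removal left a fit, and up to 0.148 for Clec10a over all 9. Both genes met the count filter through the sash libraries, since the wild-type counts were all below 10, and without a filter the adjusted p was 0.0591 for Cd163 and 0.0512 for Clec10a. Pooled counts were 167 in sash and 17 in wild type for Cd163, a ratio of 9.47 (5.74 to 16.6), and 90 and 20 for Clec10a, a ratio of 4.34 (2.65 to 7.44). Leaving out sash host 2 gave a ratio of 6.67 for Cd163, and leaving out wild-type host 4 gave 3.26 for Clec10a.

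The ranges of Spp1 and Mmp12 overlapped between hosts. Spp1 was at 480.3, 1087, 221, 886 and 425 CPM in sash hosts, against 237, 565, 593 and 561 CPM in wild-type hosts (0.33, SE 0.43, adjusted p = 0.67). Mmp12 was at 222, 725, 98.5, 562 and 262 CPM in sash hosts, against 29.2, 127, 146 and 343 CPM in wild-type hosts (1.20, SE 0.72, adjusted p = 0.346). The 95% intervals ran from −0.63 to 1.28 for Spp1 and from −0.43 to 2.84 for Mmp12. Over the 9 libraries left out in turn the difference was 0.05 (without sash host 2) to 0.55 for Spp1 and 0.84 to 1.87 (without wild-type host 5) for Mmp12. Ctss was at 19329.9, 23538, 14919, 21207 and 18002 CPM in sash hosts, against 22637, 25215, 30244 and 23837 CPM in wild-type hosts (−0.41, SE 0.15, adjusted p = 0.163), and 4 of 5 sash libraries lay below every wild-type library. The contrast of the pairs was 3.66 ± 0.28 in sash and 5.19 ± 0.82 in wild-type hosts, and its ranges of 3.29 to 3.95 and 4.26 to 5.90 did not overlap.

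All 5 genes were highest in sash host 2, next in sash host 5, and lowest in sash host 4. The summed monocyte and macrophage genes had the same first, second and last library, with 31214, 29831 and 17090 CPM in sash hosts 2, 5 and 4. So did the T cell markers, with 4794, 4533 and 2649 CPM, and the fibroblast and matrix genes, with 30517, 22439.5 and 8276 CPM. B cell and neutrophil markers also had this order of first, second and last. Other lists did not. Dendritic cell and tumour macrophage genes were highest in sash host 6, and mast cell markers were lowest in sash host 2. The part of tissue composition in the values of the 5 genes was not tested. Ranges of the summed monocyte and macrophage genes overlapped between hosts, at 17090 to 31214 CPM in sash and 14648 to 21831 CPM in wild type. Relative to Adgre1, the F4/80 gene, Cd163 had a log2 ratio of −5.02 to −1.84 in sash and −7.17 to −5.73 in wild-type hosts, and Clec10a −4.54 to −3.36 in sash and −7.34 to −5.28 in wild-type hosts. Neither pair of ranges overlapped, nor did those relative to Cd68. Relative to Csf1r they overlapped for both genes. Ctss relative to Csf1r was at 4.27 ± 0.20 in sash and 5.35 ± 0.36 in wild-type hosts, without overlap. Its ranges overlapped relative to Adgre1, at 5.15 to 5.83 in sash and 5.76 to 5.94 in wild-type hosts. They also overlapped relative to Cd68, at 4.00 to 4.53 and 4.21 to 4.75.

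Other macrophage genes lay on both sides of 0 in MC-38 tumours, and no gene of the macrophage lists passed. Of the 5 tested genes of the resident macrophage list 3 lay above 0, with a median of 0.56 beside −0.01 over all genes. Maf, a transcription factor of resident macrophages, was at 93.9 ± 39.2 CPM in sash and 40.3 ± 11.4 CPM in wild-type hosts (1.22, SE 0.32, adjusted p = 0.0891). F13a1 was at 118 ± 52.5 CPM in sash and 45.9 ± 20.4 CPM in wild-type hosts (1.34, SE 0.37, adjusted p = 0.0958). In both genes each of the 5 sash libraries exceeded all wild-type ones, as for Csf1r at 1014 ± 237 CPM in sash and 632 ± 145 CPM in wild-type hosts (0.67, SE 0.21, adjusted p = 0.127). Hpgds, a prostaglandin D synthase gene of the same list, lay at −0.13.

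In the monocyte and macrophage list 5 of 13 tested genes lay above 0, with a median of −0.13. Msr1, a scavenger receptor, was at 746 ± 124 CPM in sash and 1034 ± 126 CPM in wild-type hosts (−0.49, SE 0.16, adjusted p = 0.128). Ccl2, a monocyte chemoattractant, was at 15478 ± 3386 CPM in sash and 21516 ± 1035 CPM in wild-type hosts (−0.49, SE 0.16, adjusted p = 0.137), and it was lower in all 5 sash libraries than in any wild-type one. So was Cd44, an osteopontin receptor gene, at 3068 ± 621 CPM in sash and 4286 ± 431 CPM in wild-type hosts (−0.50, SE 0.16, adjusted p = 0.128). In the tumour macrophage list 9 of 11 tested genes lay above 0, with a median of 0.13, and Arg1 was at 12691 ± 2635 CPM in sash and 10162 ± 3832 CPM in wild-type hosts (0.31, SE 0.26, adjusted p = 0.498).

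**Figure D4:**
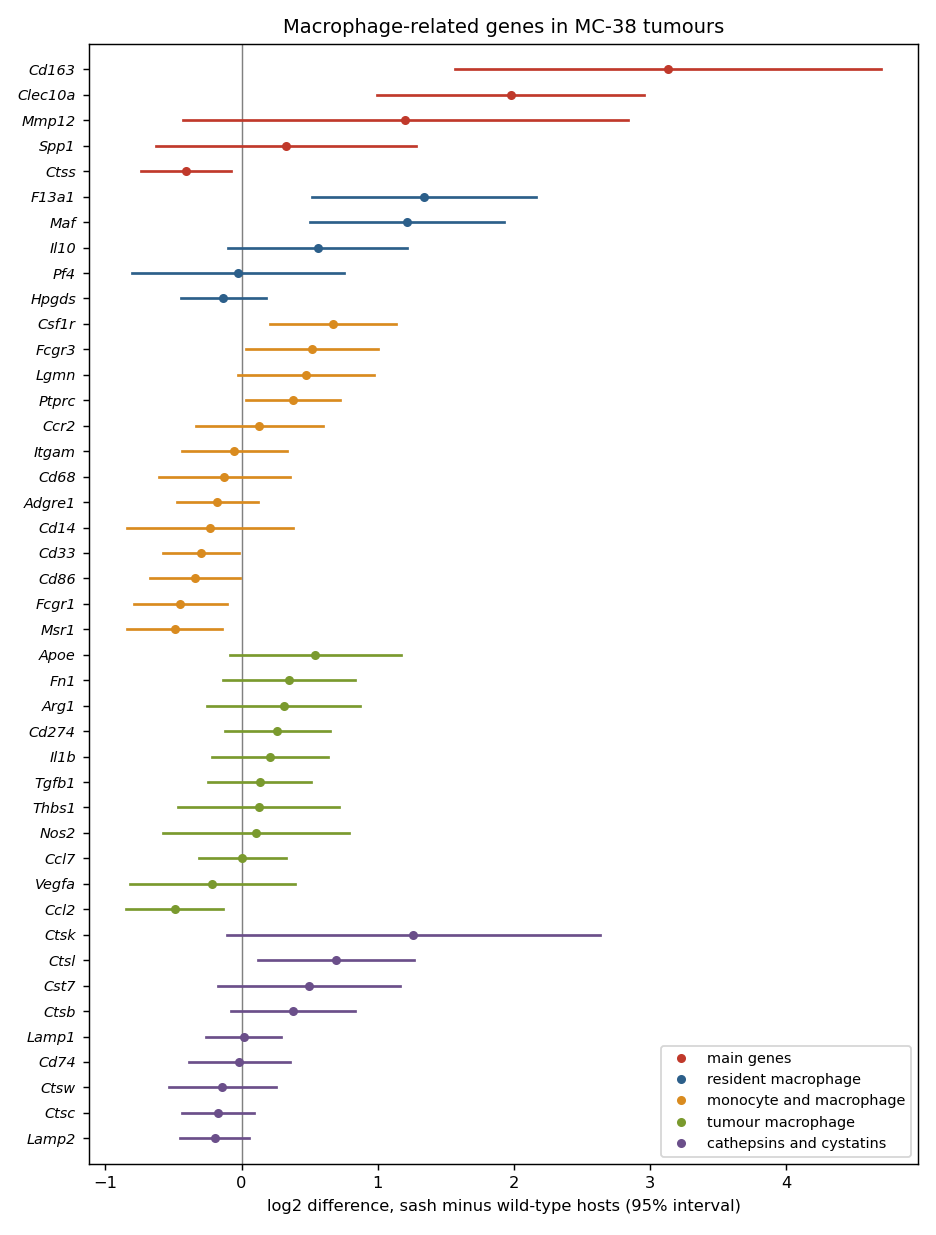
Log2 differences between sash and wild-type hosts of MC-38 tumours, with 95% intervals, for the 5 genes and 38 other genes of macrophage-related lists. Cd163 is at 3.13 and Clec10a at 1.98, F13a1 and Maf lie at 1.34 and 1.22, and Msr1 and Ccl2 lie below 0.

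In the colon tumours no gene of these lists passed either. The resident list had 2 of 5 tested genes above 0, with a median of −0.33 beside −0.04 over all genes, and Maf was at 43.2 ± 8.85 CPM in sash and 77.9 ± 26.7 CPM in wild-type tumours (−0.87, SE 0.30, adjusted p = 0.133). The tumour macrophage list had 10 of 11 above 0, with a median of 0.42. Neutrophil markers moved with it, with all 4 tested genes above 0 (median 1.52, none passed) and a summed level of 526 to 923 CPM in sash and 76.5 to 355 CPM in wild-type tumours. Their part in these differences was not tested. In the tumour macrophage list Nos2 was at 476 ± 219 CPM in sash and 139.7 ± 51.3 CPM in wild-type tumours (1.74, SE 0.40, adjusted p = 0.0684). It was above every wild-type tumour in 4 of 5 sash tumours. Vegfa, the vessel growth factor gene, was at 1154 ± 440 CPM in sash and 690 ± 104 CPM in wild-type tumours (0.72, SE 0.23, adjusted p = 0.114), above every wild-type tumour in 5 of 5 sash tumours. Ccl4, a chemokine for monocytes and T cells, was at 219 ± 138 CPM in sash and 48.9 ± 29.9 CPM in wild-type tumours (2.14, SE 0.59, adjusted p = 0.0798), also in 5 of 5. Of the 5 osteopontin receptor genes 3 lay above 0, with a median of 0.32, and Cd44 was at 4994 ± 1560 CPM in sash and 3368 ± 1696 CPM in wild-type tumours (0.55, SE 0.34, adjusted p = 0.385). The type 2 list had all 4 tested genes above 0, led by Il33 (1.30, SE 0.34, adjusted p = 0.074). The panel held no other matrix metalloproteinase gene of the list and none of their inhibitors.

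In lesions the resident list had 3 of 5 tested genes above 0 between sash and wild type (median 0.13, beside 0.05 over all genes), the monocyte and macrophage list 5 of 13 (median −0.12) and the tumour macrophage list 7 of 11 (median 0.44), and none of their genes passed. Ccl2 was at 149 ± 35.9 CPM in sash and 57.5 ± 14.3 CPM in wild-type lesions (1.35, SE 0.35, adjusted p = 0.079), higher in 3 of 3. Cd74, the invariant chain that cathepsin S trims, was at 17802 ± 2819 CPM in sash and 9365 ± 3472 CPM in wild-type lesions (0.91, SE 0.30, adjusted p = 0.145), also higher in 3 of 3. Markers of B cells, which also carry Cd74, ran the other way, at a summed 47.2 to 261 CPM in sash and 718 to 2672 CPM in wild-type lesions. All 7 tested genes lay below 0 (median −3.29), and 3 passed. Dendritic cell markers summed to 1847 to 2034 CPM in sash and 3473 to 5857 CPM in wild-type lesions. Only 1 of 6 tested genes lay above 0 (median −1.21), and 1 passed downwards. The part of these cells in the values of Cd74 was not tested.

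The genes most like each of the 5 were taken from 25 AOM libraries after centring each group on its mean, as a description over libraries that share depth and tissue composition. For Mmp12 these were Ccl4 (Pearson r 0.666), Arg1 (0.665) and Irf5 (0.638), with 0.643, 0.699 and −0.0125 over the 9 MC-38 libraries. For Spp1 they were Neto2 (0.656), Cd200r1 (0.639) and Socs1 (0.622), with 0.589, 0.827 and 0.427 in MC-38. For Cd163 they were Tfrc (0.734), Car4 (0.716) and Sult1c2 (0.706), of which Sult1c2 had 0 counts in MC-38 and the others had −0.381 and 0.808 there. For Ctss they were Chgb (0.762), Casp1 (0.748) and Acpp (0.744), with 0.296, −0.122 and −0.884 in MC-38. For Clec10a, which had a mean under 10 counts in these libraries, they were Tfec (0.72), Ms4a4a (0.629) and Emp3 (0.623), with 0.339, 0.43 and −0.464 in MC-38. Neto2 and Chgb averaged under 2 counts in MC-38, so their values there carry little.

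Among the 5 genes themselves, correlations of log2(CPM + 1), centred on group means, are likewise a description. Spp1 and Mmp12 had r = 0.721 over the 10 colon tumours and 0.06 over the 15 colon samples without a tumour. Over the 9 MC-38 tumours they had 0.909. Mmp12 and Cd163 had −0.754 over the colon tumours and 0.792 over the MC-38 tumours, where Spp1 and Cd163 had 0.903. Cd163 had 0 to 18 counts in the colon tumours, so counting error is a large part of its values there.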

How the data were processed

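The authors deposited whole-number counts per panel gene in a table of 25 AOM libraries and a table of 9 MC-38 libraries, with no normalization. The submitters' processing notes name the genome build mm9 and DESeq2. The sources used here name no aligner or counting program and do not say whether molecular tags were counted. Each table has 993 entries, of which 988 are genes and 5 are control entries at 0 that were left out. Of 36 labelled samples, wild-type MC-38 replicate 2 and sash MC-38 replicate 3 were not analysed here. Replicates differed by more than sampling noise (chi-square per degree of freedom 5.85 to 194).

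Counts were tested with edgeR 4.0.16 (R 4.3.3): quasi-likelihood test with robust dispersions, TMM scaling, filterByExpr with a minimum count of 10 and total of 15, and Benjamini-Hochberg adjustment over all genes of a comparison, with a threshold of 0.05. Tumours, lesions and MC-38 tumours were each fitted alone, the 3 cromolyn groups jointly, wild-type lesions with AOM only, and tumours with lesions of both genotypes (4 groups) for the difference of genotype effects. Levels are CPM with TMM factors within a table, as mean ± SD, and log2 values use a pseudocount of 1 CPM. Intervals of log2 differences use the t quantile of the fit and those of pooled ratios are exact. Alternatives were DESeq2 1.42.0, RLE factors, library totals, no filter, a replicate block, a fit over all 25 AOM libraries, other pseudocounts and each library left out. The test was checked on simulated data. Of 18 lists, 2 (matrix metalloproteinases and smooth muscle) had no gene on the panel.

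The 5 genes, the contrast of the pairs, the marker lists and the rule for named genes were chosen with earlier results of these data known, so no p here is independent evidence. Beside the 5 genes, the rule names up to 4 genes of smallest p per list and comparison, any that passed, and the 3 genes most like each of the 5. Below a mean of 10 counts in each group a gene is not named. Promoters and their coordinates come from RefSeq, GRCm38.p6, and no coordinates were taken from the files.

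Replicate numbers are shared between groups. In lesions, deviations from the group means correlated at 0.384, 0.154 and 0.513 between samples of the same number, each over 0.1. Elsewhere not all of these correlations were over 0.1. The labels give no pairs, and such correlations do not establish them. The values given for each comparison, lesions included, come from fits without pairing, and the replicate block is an alternative beside them.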

Additional observations from a re-analysis of the deposited data

Results flagged for a closer look

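Spp1 in sash tumour 2 stood apart from the other sash tumours, at 4838 CPM against 975 to 2019.8 CPM, and the gap met Dixon's criterion for an outlying sample. Without it the difference of Spp1 between sash and wild-type tumours was 0.21 in place of 0.83 on the log2 scale.

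Spp1 in wild-type MC-38 host 1 stood below the other wild-type hosts, at 237 CPM against 561 to 593 CPM, by the same criterion. In all, 20 sets of libraries were screened in this way, and chance flags about 1 in 20.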

How the results depend on the processing

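Counts of genes called moved more than the values of the 5 genes. In colon tumours the count was 0, and it was 81 with DESeq2 (1 of the 5 genes, Ctss), 88 in a fit over all 25 AOM libraries (2 of them, Ctss and Cd163), 2 with library totals, 6 without wild-type tumours 2 and 4 (chosen after seeing the data), and 0 to 17 with single libraries left out (0 of the 5). In lesions the count of 22 became 72 with DESeq2, 36 without a filter, 84 with the replicate block and 0 to 68 with libraries left out. For cromolyn with AOM the count of 2 became 42 with DESeq2, 18 with library totals, 7 with the block, 0 in the fit of 25 libraries, and 0 to 15 with libraries left out. For cromolyn after AOM the count of 37 became 56 with DESeq2, 21 with the block and 0 in the fit of 25 libraries (0 of the 5 genes in both), and 1 to 8 with libraries left out (0 of the 5). Between the cromolyn groups 0 genes became 3 with DESeq2 and with library totals (64 had an unadjusted p below 0.05), and 0 to 1 with libraries left out. In MC-38 tumours the count of 9 became 48 with DESeq2 (Cd163 among them), 3 with the block and 3 to 17 with libraries left out (0 to 2 of the 5), and RLE factors called 1 of the 5, Clec10a (adjusted p = 0.0498). For the difference of genotype effects 0 became 19 with DESeq2, 4 in the fit of 25 libraries, 8 without wild-type tumours 2 and 4, and 0 to 10 with libraries left out (128 had an unadjusted p below 0.05). Between wild-type lesions and AOM only the 119 genes became 11 to 268 with libraries left out (0 to 1 of the 5). In the tumours 159 genes had an unadjusted p below 0.05. The cause of these moves was not tested.

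Signs turned for Mmp12 in tumours (−0.17 without wild-type tumours 2 and 4), for Clec10a in lesions (−0.079 without sash lesion 3, and −0.21 to 0.80 over libraries left out, lowest without wild-type lesion 3) and for Mmp12 in the difference of genotype effects (0.0057 without wild-type tumour 1, and −0.68 to 0.13 over libraries left out, highest without sash lesion 3). Stage differences of the contrast ran from 9.69 to 10.2 in sash and 7.44 to 8.66 in wild type with libraries left out, and with a pseudocount of 5 CPM the sash value was 8.30. Outside the lesions, same-numbered samples did not all correlate above 0.1, and the block ended the call of Ctss after cromolyn (adjusted p = 0.0875) and changed no other call of the 5 genes, with 0.245 for Cd163 and 0.156 for Clec10a in MC-38 tumours. Cd163 could not be fitted in MC-38 tumours without sash host 1, 2, 5 or 6, because it no longer met the filter. Depth limits Cd163 and Clec10a in tumours and Spp1 and Mmp12 in lesions, where counts were at most 20 per library.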
